A study of Drosophila melanogaster with 2 samples.

Results

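Core Polycomb and Trithorax group genes of Drosophila melanogaster were examined for binding of CG31365, a protein assayed as a transcription factor by ChIP-seq. The 10 genes, of 13945 protein-coding genes in the annotation, were chosen by name: ph-p, ph-d, Pc, Psc, Su(z)2, Sce, E(z), trx, brm and ash1. A peak was counted at a gene when its summit, the position of highest enrichment, lay in the gene body or within 1000 bp of a transcript start site of that gene (a start-site peak). The samples were mixed-sex whole embryos aged 0 to 24 h of a transgenic line stably expressing CG31365 with GFP at its C terminus. All samples carried this fusion. They made up 1 group with replicates 2 and 3, which the labels call biological, and no control group was analysed. The labels name neither the promoter behind the transgene nor how many insertions the line carries. They name CG31365 in the antibody field, and although the other fields describe a ChIP, the wording of 1 field is that of an input control. Whole embryos mix all cell types, so binding in few cells and weak binding in many cannot be told apart.

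Polycomb group proteins keep developmental genes, the Hox genes above all, silent through cell division, and Trithorax group proteins keep them active. Polycomb repressive complex 1 contains Polyhomeotic, encoded by the neighbouring genes ph-p and ph-d, the histone H3 lysine 27 methyl reader Pc, the ubiquitin ligase Sce (dRing) and Psc or its relative Su(z)2, while complex 2 contains the methyltransferase E(z). Trx and Ash1 are histone methyltransferases and Brm is the ATPase of the fly SWI/SNF remodellers. Many Polycomb and Trithorax group genes were first found through changes in body segment identity in mutants.

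The deposited data were 4 peak lists: 30000 peaks and background regions for each replicate, 30000 called on the replicates together (the pooled list), and 2821 retained for reproducibility by the irreproducible discovery rate (the IDR peaks). The deposited signal value, the peak caller's enrichment signal, ranks peaks within a list and has no stated scale. It ran from 124 to 11639 in the IDR list (median 190) and had a median of 42.9 in the pooled list. Read depth was unknown. All coordinates are on assembly dm6, and no test was made, because there is 1 group and the genes were picked with earlier results of these data known.

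The sequences under the leading summits are shown for some of the peaks described below, without a test of whether they carry the binding. The IDR peak of Psc (rank 723), with its summit in an intron, is not among them. They are plus strand, 5′ to 3′, with the summit base and 5 bases on each side in capitals, and windows that touch an annotated UTR are not printed.
ph-p, rank 97, chrX:2137305-2137385: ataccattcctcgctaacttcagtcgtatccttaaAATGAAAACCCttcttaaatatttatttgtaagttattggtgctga
ph-p, rank 841, chrX:2135327-2135407: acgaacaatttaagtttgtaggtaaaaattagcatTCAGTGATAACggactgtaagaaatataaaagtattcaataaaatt
ph-d, rank 1062, chrX:2124043-2124123: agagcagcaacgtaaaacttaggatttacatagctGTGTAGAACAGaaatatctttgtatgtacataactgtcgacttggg
trx, rank 268, chr3R:14283819-14283899: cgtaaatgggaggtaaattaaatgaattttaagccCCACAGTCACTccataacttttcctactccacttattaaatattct
brm, rank 659, chr3L:15982947-15983027: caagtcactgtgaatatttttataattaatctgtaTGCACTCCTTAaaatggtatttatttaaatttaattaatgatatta

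An IDR peak was found at 5 of the 10 genes: ph-p, ph-d, Psc, trx and brm. The same rule was met by 16.8% of all protein-coding genes. Together the 5 genes held 9 IDR peaks, 4 of them at ph-p, and 4 or more IDR peaks were found at 0.624% of protein-coding genes. In the wider list of 63 Polycomb and Trithorax group genes described below, Kdm2 (5 IDR peaks) and Trl (4) also had that many. At start sites 3 of the 10 had an IDR peak (ph-p, ph-d and brm), against 13.9% of protein-coding genes. Every one of the 9 peaks had a summit within 100 bp in the list of each replicate, as did 96.1% of all IDR peaks. In the pooled list 9 of the 10 genes had a peak, all 9 with a start-site peak, against 58.9% of protein-coding genes by the whole rule and 55.6% at start sites. Sce alone had no peak in any of the 4 lists.

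The share of genes with an IDR peak rose with gene length. Most of the 10 genes are longer than 5 kb, while 10461 of the 13945 protein-coding genes are shorter. The part of length in the count of 5 was not tested. Of protein-coding genes under 5 kb, 10.7% met the IDR rule, and neither E(z) (3.6 kb) nor Sce (1.6 kb) did. The share was 25.5% from 5 to 10 kb, where ph-d (7.6 kb) had a peak and ash1 (8.0 kb) had none. From 10 to 20 kb it was 35.7%, with peaks at ph-p, Psc and brm and none at Pc or Su(z)2. At 20 kb and above it was 48.3%, with trx (23.5 kb) the 1 member. Start-site IDR peaks also rose with length: 10.3% under 5 kb, 21.2% from 5 to 10 kb, 25.8% from 10 to 20 kb and 28.4% above. Of the members with a start-site IDR peak, ph-d lies in the 5 to 10 kb range and ph-p and brm in the 10 to 20 kb range.

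**Figure D1:**
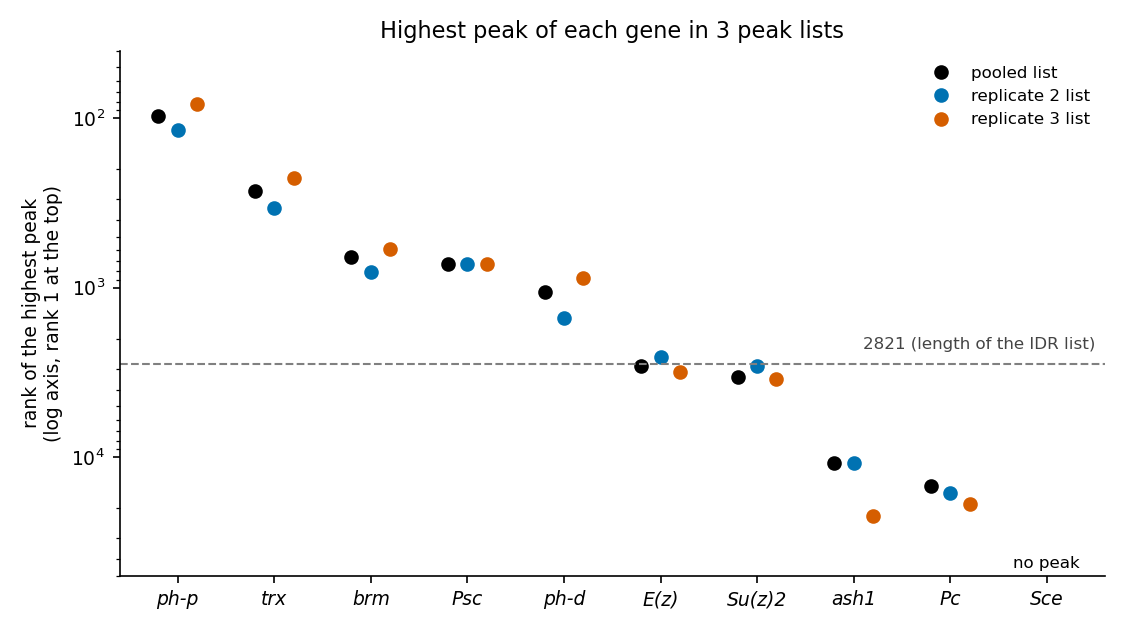
Rank of the highest peak at each gene (vertical log axis, rank 1 at the top) in the pooled, replicate 2 and replicate 3 lists, with a dashed line at rank 2821, the length of the IDR list. The first 5 genes lie above the line in all 3 lists, E(z) and Su(z)2 lie close to it, and Sce has no peak.

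The highest peak of the 10 genes lay at ph-p (X, 2126210 to 2138371, minus strand), 1 of the neighbouring copies that encode Polyhomeotic. Its signal was 728 in replicate 2 (rank 118) and 759 in replicate 3 (rank 82), and 1481 in the pooled list (rank 97). Only 0.602% of protein-coding genes had a pooled-list peak of higher signal. The peak (X, 2137186 to 2137531) lay in an intron, 1026 bp inside the most upstream start site and 490 bp upstream of the next one. The second ph-p peak (X, 2137725 to 2138068) lay in the 5′ UTR, 437 bp inside the most upstream start site, with a pooled signal of 763 (rank 191). Its ranks were 199 in replicate 2 and 180 in replicate 3. The ph-p peaks at rank 841 (X, 2135280 to 2135408, pooled signal 263) and rank 2158 (X, 2134378 to 2134497, pooled signal 145) lay in intronic sequence, 1255 and 2162 bp inside the nearest start site. Replicates placed the first of these at ranks 1108 and 715 and the other at 2072 and 2610, so the order of the 4 ph-p peaks was the same in each replicate.

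The neighbour ph-d (X, 2115727 to 2123286, minus strand) had 1 IDR peak, lower than the 3 highest of ph-p. Its signal was 99.4 in replicate 2 (rank 1504) and 123 in replicate 3 (rank 874), and 229 in the pooled list (rank 1062). The peak (X, 2123891 to 2124274) lay 797 bp upstream of the most upstream ph-d start site, in the 2923 bp that separate the neighbours, and no other start site was nearer. At the start site itself ph-d had a weaker pooled-list summit (X, 2123093 to 2123476), 1 bp inside, with a pooled signal of 101 (rank 3995). Replicate 2 placed a peak 14 bp inside that start site at rank 2734, and replicate 3 one 48 bp upstream of it at rank 4761. A further pooled-list peak (X, 2121935 to 2122318, signal 102, rank 3937) stood 335 bp upstream of the other ph-d start site. In all 3 lists the highest ph-d peak was below the 3 highest ph-p peaks.

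**Figure D2:**
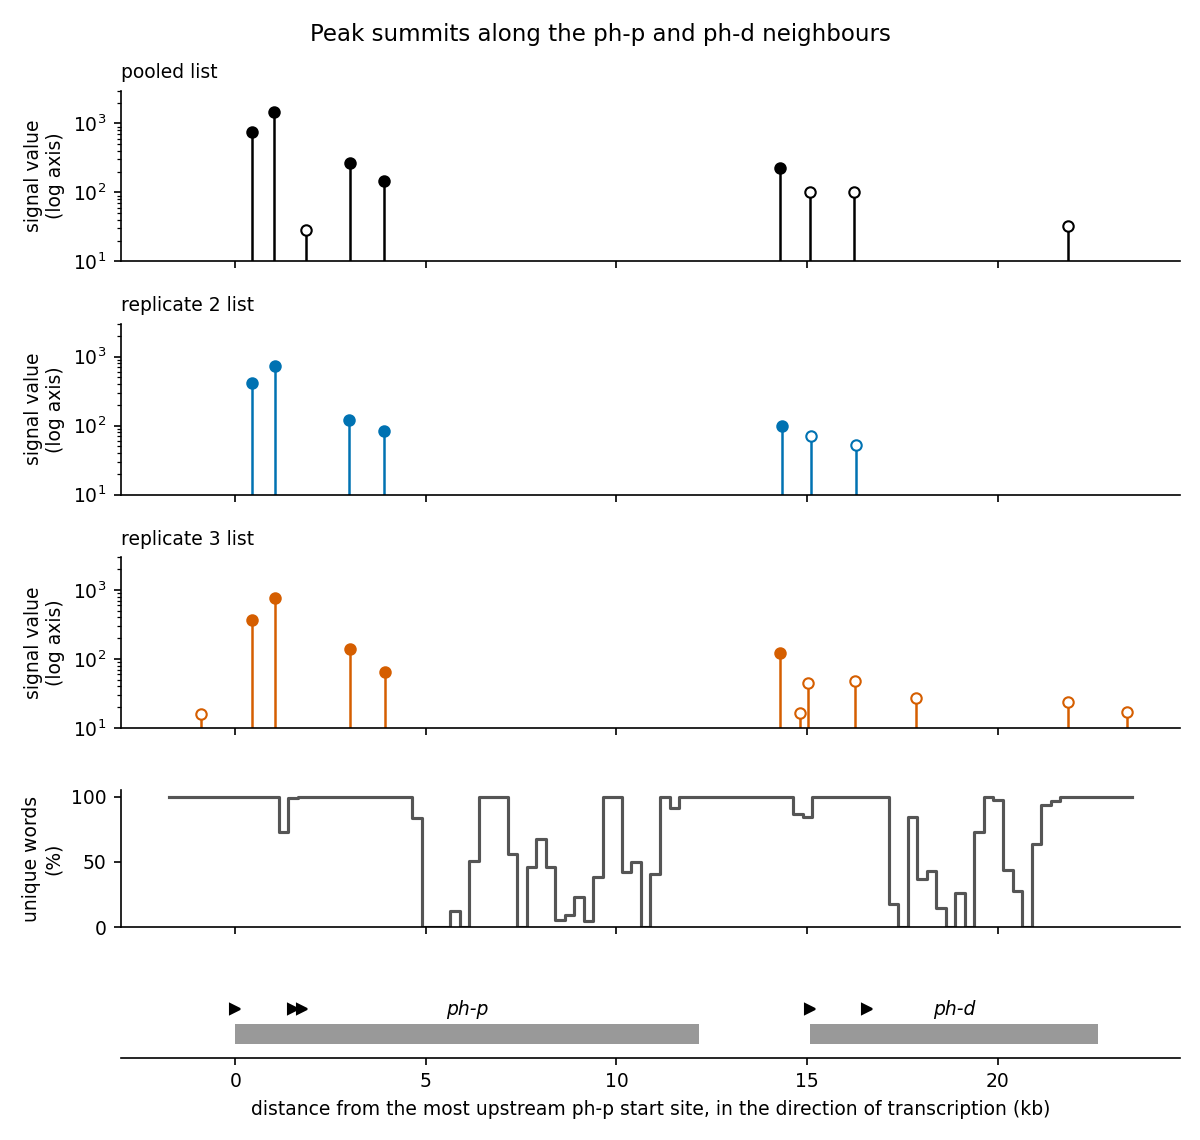
Summits in the pooled, replicate 2 and replicate 3 lists along ph-p and ph-d (horizontal axis, kb from the most upstream ph-p start site in the direction of transcription; vertical log axis, signal value), with filled points within 100 bp of an IDR summit. The fourth panel gives the percent of 36-base words that occur only 1 time in the genome, in bins of 250 bp, and the lowest panel shows genes as grey boxes and start sites as arrowheads. The 4 filled ph-p points stand at the 5′ part of the gene, where nearly all words are unique, and no ph-p summit lies in the 3′ part, where few are in many bins.

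The neighbours share a long similar stretch, where reads may not be placeable in either copy. It spans 4480 aligned positions that were 92% identical. Of the 36-base words, 67.8% of those of ph-p and 67.5% of those of ph-d occurred only 1 time in the genome. Not all repeated ph-p words lie in sequence aligned to ph-d. From about 5 to 6 kb inside the most upstream ph-p start site, 0 to 12% of words per bin were unique. No block aligned to ph-d in that part. The summits described above stood outside the repeated words: 100% of the 36-base words within 100 bp of each of the 4 IDR summits at ph-p and of the 1 at ph-d were unique. Around the start sites (1000 bp to each side) 98.1% of words were unique at ph-p and 86.7% at ph-d. The start region is also shared. A block of 529 aligned positions (90.7% identical) covers the middle ph-p start site and the upstream ph-d start site, followed upstream by blocks of 387 positions (70.5%) and 358 positions (81%). None of the 5 IDR summits lay inside an aligned block. The summit of the second ph-p peak lay 20 bp from the 358-position block, and the ph-d summit lay 31 bp from the 387-position block, so both stood in the interval between those 2 blocks in their own copy. That interval is 98 bp long in ph-p and 209 bp in ph-d. The place of the ph-d summit relative to the blocks depended on the list. Replicate 2 put it at X, 2124020, inside the 387-position block, which ends at 2124052 in ph-d. Replicate 3 put it at 2124079, outside that block. The summit of the highest ph-p peak lay 81 bp from the 529-position block, between it and the 387-position block. There ph-p has 208 bp and ph-d 15 bp, and the pooled list held no ph-d summit in those 15 bp.

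Psc and Su(z)2, a further pair of related neighbours on 2R, also differed in IDR peaks. Psc (2R, 12965997 to 12980994, minus strand) had an IDR peak in an intron, 5065 bp inside the nearest start site (2R, 12975481 to 12975671). Its signal was 157 in replicate 2 (rank 721) and 138 in replicate 3 (rank 728), and 292 in the pooled list (rank 723), the closest agreement in rank among the 9 peaks. Pooled-list peaks followed at an intronic site (signal 116, rank 3182) and at the start sites (signal 104, rank 3834). Su(z)2 (2R, 12996501 to 13007911, plus strand) had no IDR peak. Its highest pooled-list peak (2R, 12996336 to 12996719) lay 27 bp inside a start site with a signal of 111 (rank 3387), and reached 68.3 in replicate 2 (rank 2904) and 54.5 in replicate 3 (rank 3451). Of the 36-base words, 100% were unique in Psc and 99.9% in Su(z)2, and the cause of the difference was not tested. The 15506 bp between them held 2 more IDR peaks, 1 (2R, 12985070 to 12985342, signal 440, rank 387) 185 bp from the start site of lncRNA:CR44339 and 1 (signal 165, rank 1736) 5487 bp from Su(z)2.

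The chromodomain gene Pc had only weak peaks within the rule. The single pooled-list peak lay 70 bp upstream of its start site with a signal of 43.3 (rank 14849), close to the list median. Replicate 2 placed its highest Pc peak at rank 16243 (signal 24.8) and replicate 3 at rank 18908 (signal 20). The gene body of Pc is largely repeated: 23.7% of its 36-base words were unique, although 100% were within 1000 bp of its start site. A strong IDR peak stood just beyond the gene, 1574 bp past its 3′ end and 94 bp from the start site of CG11309 (3L, 21304404 to 21304745, signal 1237, rank 119). Its replicate ranks were 137 and 96.

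The methyltransferase gene E(z) fell just short of the IDR list. Its pooled-list peak (3L, 10637915 to 10638298) lay 23 bp inside a start site with a signal of 122, at rank 2906, which is 85 places below the last IDR peak. It reached 72.9 in replicate 2 (rank 2569) and 57.6 in replicate 3 (rank 3129). The start site of Cnep1r2 lay 39 bp from the same summit, on the opposite strand. Sce (3R, 27680431 to 27682029, minus strand), whose 36-base words were all unique, had its nearest pooled-list summit 2746 bp outside the gene.

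Among trx, brm and ash1, the Trithorax group genes of the 10, trx (3R, 14263358 to 14286903, minus strand) had the highest peak. Its signal was 261 in replicate 2 (rank 340) and 301 in replicate 3 (rank 224), and 565 in the pooled list (rank 268). The peak (3R, 14283743 to 14284007) lay in an intron 3044 bp inside the start site. A second intronic IDR peak 8878 bp inside (3R, 14277833 to 14278216, pooled signal 135) was at rank 2423, with replicate ranks of 2672 and 3091. At the start site trx had no IDR peak: its start-site peaks in the pooled list reached a signal of 72.7. With 12 pooled-list peaks in all, trx had the most of the 10 genes.

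The Brahma ATPase gene brm (3L, 15970082 to 15982869, minus strand) had its IDR peak at the promoter. Its signal was 148 in replicate 2 (rank 808) and 157 in replicate 3 (rank 592), and 309 in the pooled list (rank 659). The peak (3L, 15982895 to 15983095) lay 118 bp upstream of brm and 148 bp upstream of Arl1, an Arf-like GTPase gene that starts on the other strand, so it lies between divergent start sites. A pooled-list peak in an intron of brm (signal 100, rank 4061) stood 16 bp from the start site of CG17027, a gene that lies inside brm. The methyltransferase gene ash1 (3L, 19590773 to 19598755, minus strand) had a pooled-list peak of only 53.2 (rank 10810), 68 bp inside its start site. Replicate 2 placed its highest ash1 peak at rank 10796 (signal 31.6) and replicate 3 at rank 22104 (signal 18.2).

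One of the strongest peaks of the list nevertheless bordered ash1. It lay 154 bp past the 3′ end of the gene and 95 bp from the start site of CG14100 (3L, 19590457 to 19590779), with signals of 952 in replicate 2 (rank 91) and 803 in replicate 3 (rank 74), and 1754 in the pooled list (rank 85). Its interval reaches into ash1 and its summit does not, so it is outside the count. The sequences at the peaks beyond ash1 and Pc show what lies just outside the rule, with the summit base and 5 bases on each side in capitals.
beyond ash1, rank 85, chr3L:19590579-19590659: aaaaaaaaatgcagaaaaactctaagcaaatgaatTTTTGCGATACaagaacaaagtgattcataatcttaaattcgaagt
beyond Pc, rank 119, chr3L:21304524-21304604: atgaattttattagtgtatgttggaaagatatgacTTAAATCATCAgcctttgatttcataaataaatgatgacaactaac

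**Figure D3:**
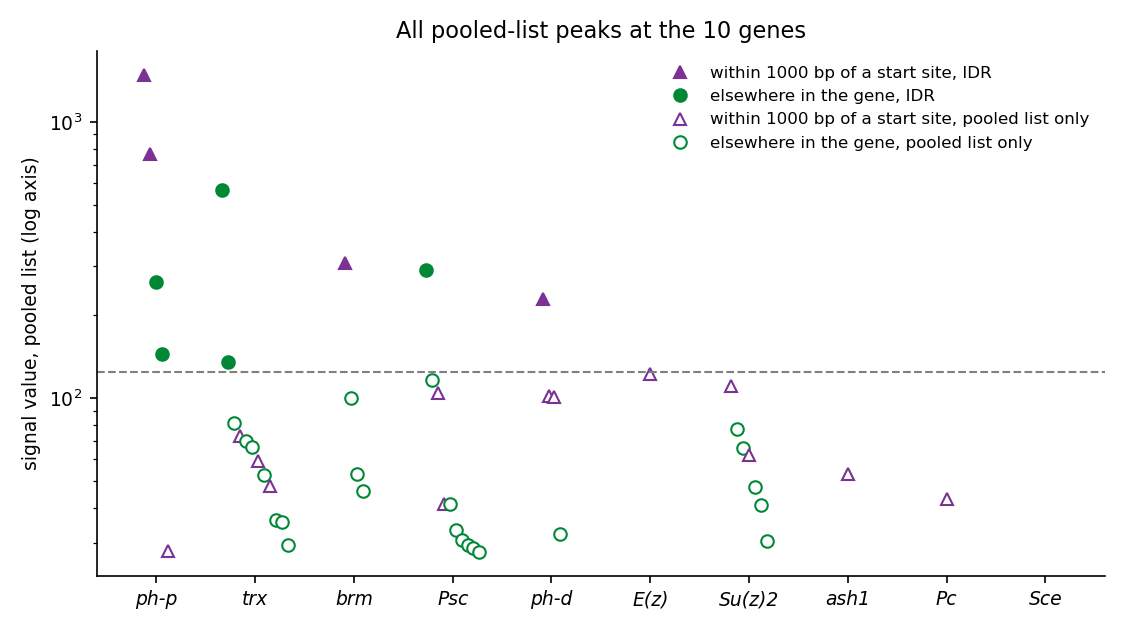
Signal value in the pooled list (vertical log axis) of every peak at each of the 10 genes, with triangles for start-site peaks, circles for peaks elsewhere in the gene, filled symbols for IDR peaks and a dashed line at 124, the lowest IDR signal. The filled symbols stand at 5 genes, E(z) has 1 open symbol just under the line, and most trx and Psc symbols are open circles.

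Short sequences, chosen with earlier results known, were looked for on either strand within 100 bp of the 9 IDR summits. AAGCAGT was taken from earlier results of these same data. The others were GAGAG, recognised by GAGA factor, GCCAT, the core of the Pleiohomeotic site, and TATCGATA, the DNA replication-related element. None of the 9 held AAGCAGT, which was in 13.2% of all IDR peaks and 2.72% of low-ranked peaks (pooled-list peaks that overlap no IDR peak). As the word came from these data, the gap between those shares is no independent result. With only 9 peaks, a count of 0 cannot be told from a share of 13.2%. None held TATCGATA, in 3.01% of IDR peaks and 1.26% of low-ranked ones. GAGAG was at 3 of the 9, against 29.4% of IDR peaks and 26.8% of low-ranked ones. GCCAT was at 2 of the 9, against 29.1% and 35.6%. No match lay wholly within 50 bp of a summit. Counted along the plus strand to the first base, in the lowest ph-p peak GCCAT began 84 bp before the summit and GAGAG 81 bp after it. In the second trx peak overlapping GAGAG copies began 56 and 54 bp before the summit, and in the Psc peak GCCAT and GAGAG began 83 and 98 bp before it. The peak beyond ash1 held AAGCAGT 73 bp after its summit, and the one beyond Pc held none of the 4 words. The pooled-list peaks at the start sites of Psc and Su(z)2 held 6 overlapping or separate GAGAG copies each. Those at the start sites of ph-d (rank 3995) and E(z) (rank 2906) held 1 each. The highest counts were in a few intronic pooled-list peaks: 12 and 11 at trx (ranks 7695 and 5659) and 7 at Su(z)2 (rank 12752). The other intronic pooled-list peaks at the 10 genes held 0 to 2 copies. Copy number was not compared with that at other peaks of the list.

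The windows of 201 bp around the lowest ph-p peak and the second trx peak show these matches in capitals, on the plus strand, where a match on the other strand reads ATGGC or CTCTC.
ph-p, rank 2158, chrX:2134360-2134560: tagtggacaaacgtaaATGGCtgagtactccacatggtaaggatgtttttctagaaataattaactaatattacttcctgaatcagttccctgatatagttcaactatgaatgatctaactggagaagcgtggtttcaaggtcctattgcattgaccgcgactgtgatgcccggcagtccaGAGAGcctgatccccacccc
trx, rank 2423, chr3R:14277925-14278125: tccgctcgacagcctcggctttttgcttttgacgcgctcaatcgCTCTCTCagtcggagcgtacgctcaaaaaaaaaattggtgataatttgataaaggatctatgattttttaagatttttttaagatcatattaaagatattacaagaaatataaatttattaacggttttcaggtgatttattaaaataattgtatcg

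A list of 63 Polycomb and Trithorax group genes, the 10 included, set the genes in the wider system. Of the 63, 20 had an IDR peak and 13 a start-site IDR peak, and without the 10 it was 15 and 10 of 53. The shares over protein-coding genes were the 16.8% and 13.9% given above. By length, 8 of the 9 other listed genes of 20 kb or more had an IDR peak, against 48.3% of protein-coding genes of that length. It was 2 of 5 from 10 to 20 kb (against 35.7%), 2 of 17 from 5 to 10 kb (against 25.5%) and 3 of 22 under 5 kb (against 10.7%). The 12 other Polycomb genes and recruiters gave 6, the 6 other Trithorax genes 4 and the 10 Brahma complex genes 3. In Polycomb repressive complex 1 it was 3 of 7 genes, in complex 2 it was 2 of 8 (Jarid2 and jing) and in the PR-DUB deubiquitinase 1 of 2. Of the 13 genes of the COMPASS family, the Set1 and Trithorax-type methyltransferase complexes, trx alone had an IDR peak. None of the 3 PhoRC and 2 Ash1 complex genes had one. The classes differ in gene length. COMPASS genes other than trx were 0.7 to 15.6 kb long, and the other Polycomb genes and recruiters 3.5 to 59.4 kb. The part of length in the class counts was not tested.

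The start-site IDR peaks of the 10 other genes had lower signal than the 2 highest ph-p peaks, which are start-site peaks as well. They were led by nej, the CBP acetyltransferase gene (signal 477, rank 344, 679 bp upstream, with lncRNA:CR42657 nearer at 444 bp), Dsp1, an HMG-box recruiter gene (410, 560 bp upstream, CG9921 at 548 bp) and fs(1)h, the BET bromodomain gene (281, 275 bp upstream, with the integrin gene mys at 66 bp). Trl, which encodes GAGA factor, followed (234, 109 bp inside a start site), then Kdm2, a histone demethylase gene (160), lolal (137), caly, the PR-DUB deubiquitinase gene (136), the Brahma subunit gene Bap60 (135), the chromodomain remodeller gene kis (134) and Jarid2, a complex 2 partner (134). At nej, Dsp1, fs(1)h, caly, Bap60 and Jarid2 the start site of another gene was nearer to the summit. Of these 10 genes, 3 had a higher IDR peak in an intron away from the start sites: Trl (signal 812, rank 179, above the second ph-p peak), Kdm2 (signal 316, rank 637) and kis (signal 144, rank 2171). An IDR peak in the gene body alone was found at osa, a Brahma complex subunit gene (signal 666, rank 226), at grh (275), psq (263), jing (217) and tna (127), genes of 30.5 to 119.8 kb.

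**Figure D4:**
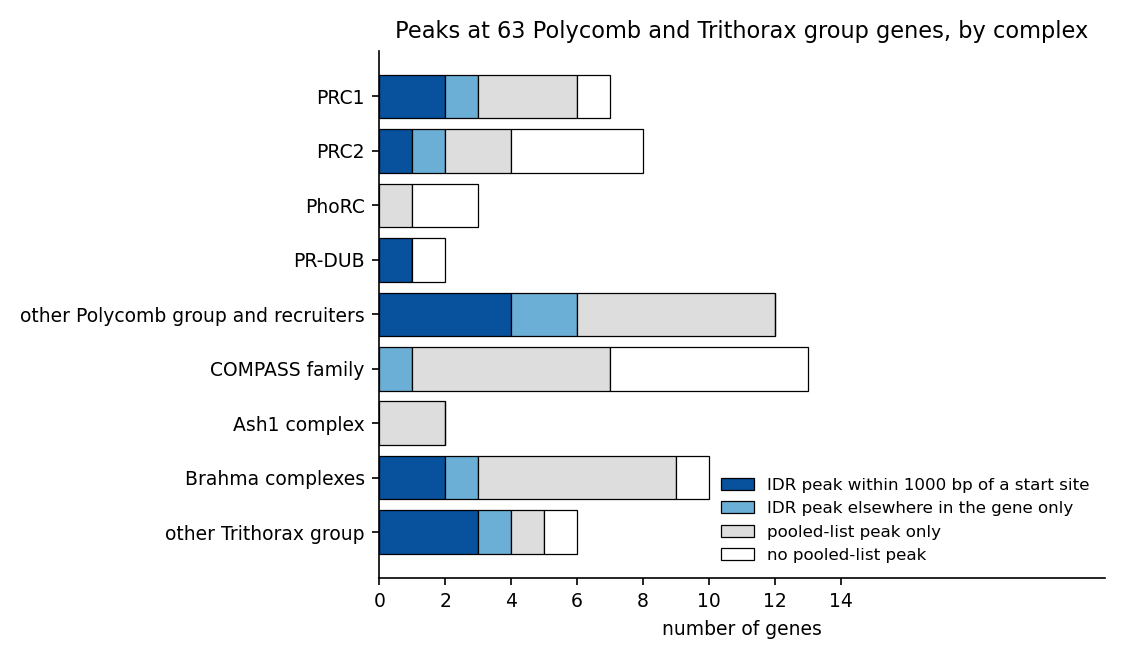
Number of genes (horizontal axis) of each complex or class in the list of 63, split by their highest class of peak: start-site IDR peak, IDR peak elsewhere in the gene only, pooled-list peak only, or no pooled-list peak. The 13 COMPASS family genes hold 1 gene with an IDR peak, and the 12 other Polycomb genes and recruiters hold 6. Gene lengths differ between the classes.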

How the data were processed

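ChIP-seq peak lists of 2 biological replicates were used, with groups and replicate numbers from the labels. Per the submitters' file listing the authors called peaks on dm6 from each library, and from both together, against a separate control file. For aligner, peak caller, IDR threshold and depth, nothing is given in the sources used here. The deposited signal (column 7) ranked peaks within lists. The deposited −log10 q-value (column 9) served in 1 alternative, and the deposited summit offset gave summit positions. Genes came from Ensembl release 115 (BDGP6.54), without transposable elements and pseudogenes, and sequence from RefSeq's copy of the same assembly. All 10 genes had equal bounds in RefSeq, and of 63 listed genes 62 matched by symbol and 1 (caly, for calypso) by synonym. Gene counts used summits in the gene body or within 1000 bp of a start site. Neighbours were aligned with blastn 2.17.0 (e-value 1e-05), each with 1500 bp of upstream sequence. Unique words of 36 bases were counted over all RefSeq sequences and both strands. The members and lists were chosen with earlier results of these data known. The text names all 10 genes, every other listed gene with a start-site IDR peak, and genes whose start site is nearer to a peak; the body peaks of other listed genes, CG11309, CG14100 and lncRNA:CR44339 were named after their values were seen. The counting steps were tested on simulated data. Python 3.11.15 was used with numpy 2.4.6, pandas 2.3.3, numba 0.67.0 and matplotlib 3.10.9.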

Additional observations from a re-analysis of the deposited data

How the results depend on the processing

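Shares of protein-coding genes under the same setting are given after "against". The count of 5 genes with an IDR peak was 4 with a 500 bp start-site window (ph-d lost, against 15.2%) and 5 with 2000 bp (against 19.5%). It was 6 by overlap of the peak interval (ash1 gained, against 17.5%) and 5 with the 1410 IDR peaks of highest signal (against 9.34%). With the 5642 highest pooled peaks it was 7 (E(z) and Su(z)2 gained, against 28%). In the gene body alone it was 3 (ph-p, Psc and trx, against 9.22%), since the ph-d and brm peaks lie upstream. Leaving out a replicate gave 5 without replicate 2 (against 16.9%) and 6 without replicate 3 (E(z) gained, against 17.2%). The start-site count of 3 ranged from 2 to 4 over the windows, interval overlap, the shorter list and each replicate left out. The shares for these settings ran from 7.42% (the shorter list) to 17.6% (the 2000 bp window). With 5642 pooled peaks the start-site count became 6 (against 24.9%). For the list of 63, gene bodies alone gave 12 in place of 20 (against 9.22%). Its start-site count of 13 became 7 with 1410 IDR peaks (against 7.42%) and 26 with 5642 pooled peaks (against 24.9%). It was 14 without replicate 2 (against 14.1%) and 16 without replicate 3 (against 14.3%). GAGAG was at 0 of the 9 summits within 50 bp (14.4% of all IDR summits) and at 5 within 200 bp (50.8%). GCCAT was at 0 (16.5%) and 4 (51.3%), and AAGCAGT at 0 in either window (11% and 16.1%). Summits of 8 of the 9 matched in each replicate within 50 bp. With words of 100 bases, 74.3% of ph-p and 75.2% of ph-d words were unique. Ranking by q-value moved 15 of 27 ranks by over 1.5 times: 3260 pooled peaks share the highest value, so it cannot order the leading peaks. No paired analysis was possible because there is 1 group. Depth is unknown, so the lack of any peak at Sce, and of an IDR peak at Pc, ash1, E(z) or Su(z)2, says only that none was listed.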

Other observations

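The 9 IDR summits at ph-p, ph-d, Psc, trx and brm were low in GC. Over 201 bp their GC content had a median of 31.3% and ran from 25.9% (the second ph-p peak) to 43.8% (the lowest ph-p peak), beside a median of 39.3% over all IDR summits. Of the 9 peaks, 7 were narrower than 384 bp, the most common width in the pooled list, against 33.3% of all IDR peaks. The exceptions were the ph-d peak and the second trx peak. The relation of GC content or width to binding was not tested.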
